A study of Mus musculus with 6 samples.

Results

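The 46 genes described here are mouse interferon-stimulated genes, a set that contains the apolipoprotein L genes Apol9a and Apol9b. They were picked by name from a table comparing thymic iNKT1 cells with and without floxed Tgfbr2, a gene that encodes a receptor chain for TGF-beta. All 46 names were found among the 17985 genes listed, and all 46 passed the filter of a mean of at least 1 CPM (a gene's reads scaled to the library total), which left 15691 genes for testing. The loss of Apol9b in that same comparison was known when the set was drawn up. Differences between the groups are therefore given for these genes as a description and without p-values. Where members are said to be called at a threshold, that is a description as well.

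iNKT1 cells are invariant natural killer T cells of the interferon-gamma-producing type, and here they came from the thymus of untreated C57BL/6 mice. The control group (Ctrl, n = 3 libraries) had the genotype Tbx21CreTg;Rosa26-LSL-YFP+/+, and the knockout group (cKO, n = 3 libraries) carried Tgfbr2F/F in addition. Both groups therefore had the Cre transgene, named for Tbx21, the gene of the T-bet transcription factor, and the Cre-activated YFP reporter. Sex and age, and whether each library came from its own mouse, are not given in the sources used here, so every p-value measures only the spread between these libraries.

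Each library held between 28832779 and 68092478 reads, and 1 read was worth 0.0147 to 0.0347 CPM. The libraries labelled replicate 3 stood apart from the other 4. The first principal component, with 85.1% of the variance, separated them, and they listed 4406 (Ctrl) and 4590 (cKO) genes at 0 against at most 5 in any other library. Tgfbr2 itself stood at 461, 461 and 425 CPM in the Ctrl libraries and at 289.8, 258 and 274 CPM in the cKO libraries. Its mean in cKO was 61.0% of the Ctrl mean (limma adjusted p = 0.0207, lower in 3 of 3 cKO libraries; 0.0620 by edgeR's quasi-likelihood test). Which exons are floxed is not given in the sources used here, so reads summed over the gene check the labels only in part. All 14 iNKT1 markers were present in all 6 libraries, with a summed level of 10841 to 12738 CPM in Ctrl and 11269 to 14822 CPM in cKO. Il2rb was the most abundant of them, and the sum does not show single markers: Xcl1 was lower, at 50.5% of its Ctrl mean (limma adjusted p = 0.0281), and Ccl5 stood at 223% (adjusted p = 0.0631, and 0.00078 with the replicate number as a block in the fit). With the block, limma called 4 of the 14 markers, where 2.87% of all genes were called. Beside Xcl1 and Ccl5 these were Slamf6, at 248% (adjusted p = 0.00460), and Il2rb, at 127% (adjusted p = 0.0166). Klrb1c, called by limma in neither fit, stood at 566, 180 and 703 CPM in Ctrl replicates 1, 2 and 3. It stood at 640, 870 and 1021 CPM in cKO, so Ctrl replicate 2 was the lowest library for this marker.

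Interferons are secreted proteins that bind receptor pairs at the cell surface. Type I interferons act through Ifnar1 and Ifnar2, and interferon gamma through Ifngr1 and its partner chain. The bound receptors activate JAK kinases, which phosphorylate STAT proteins. Stat2 and Irf9 belong to the complex ISGF3, which binds the interferon-stimulated response element (ISRE), and interferon gamma acts through the gamma-activated site (GAS). The genes these factors switch on encode sensors of viral nucleic acid, antiviral effectors, GTPases that attack vacuoles, and the feedback regulators of the pathway. Resting lymphocytes keep many of these genes on at a low level.

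Apol9b and Apol9a were nearly lost in cKO, 4 further members (Ifitm2, Isg20, Gbp3 and Ifitm3) had differences of -3.15 to -1.78 on the log2 scale, and no such fall ran through the rest. Of the other 40 genes, 33 were higher and 7 lower in cKO, with a median log2 difference of 0.14 against -0.04 over all genes tested. The master regulators Irf7, Irf9 and Stat2 differed by 0.01, 0.21 and 0.03. By limma's test with Benjamini-Hochberg adjustment over all genes (threshold 0.05), 6 members were called, where 0.663% of all genes were. All 6 were called lower (0.459% of all genes), and 0 were called higher (0.204% of all genes). The set was drawn from this comparison, so nothing is read from these counts.

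**Figure D1:**
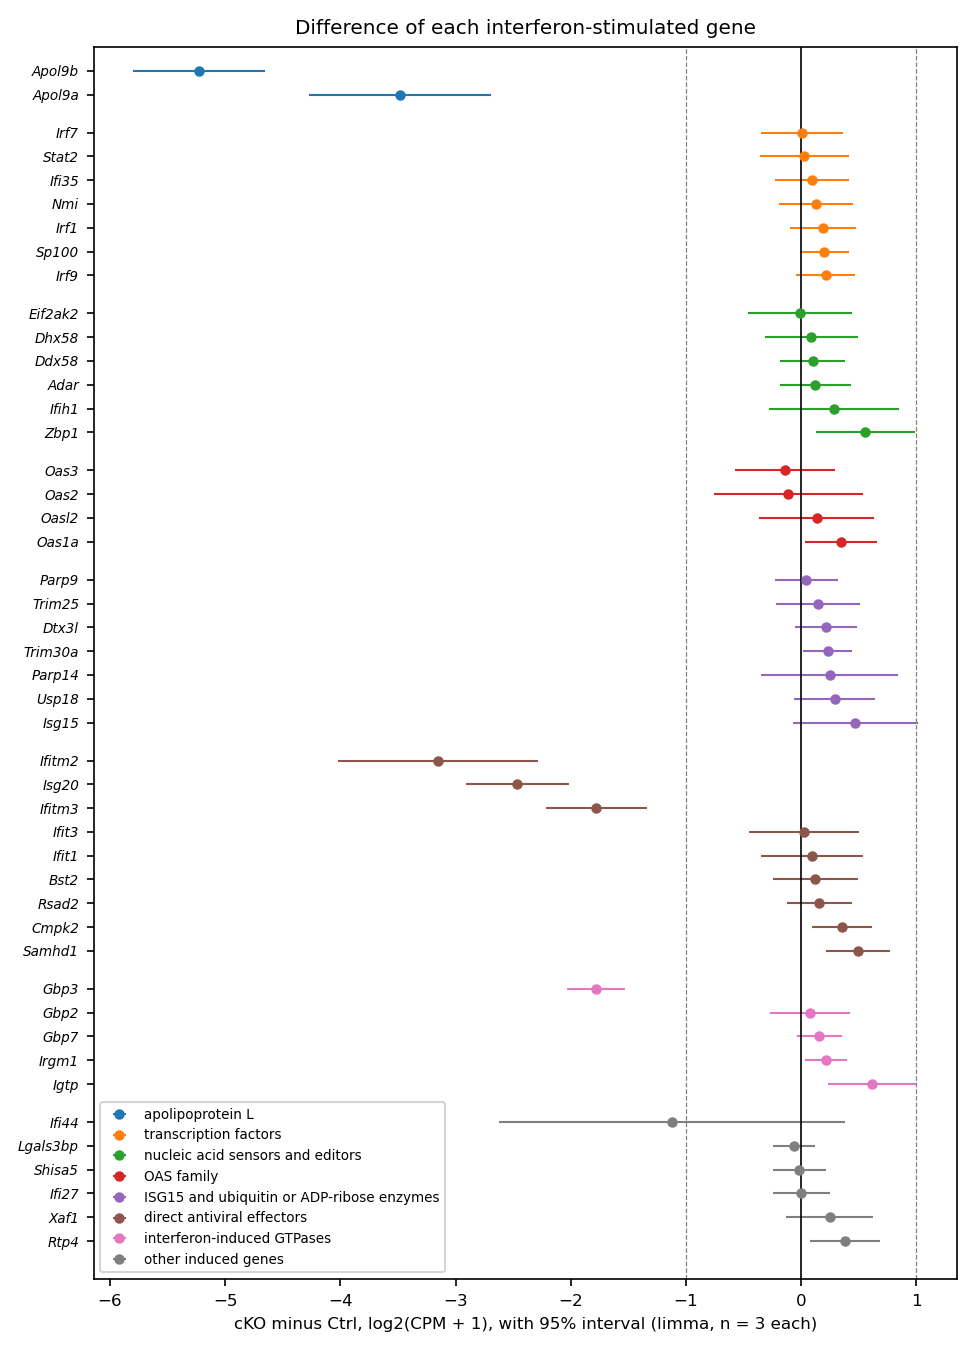
Difference between cKO and Ctrl for each of the 46 interferon-stimulated genes, on the log2(CPM + 1) scale (x axis), grouped by role; points are estimates and bars their 95% limma intervals, 3 libraries a group. Apol9b (-5.23) and Apol9a (-3.48) lie at the far left, and 38 of the 46 intervals lie within a 2-fold change in either direction.

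The apolipoprotein L proteins are relatives of the human serum protein that kills trypanosomes, and in mouse the Apol9 genes are known to be induced by interferon. The gene Apol9b (ENSMUSG00000068246) lies on chromosome 15 from 77729121 to 77736381, plus strand, and Apol9a (ENSMUSG00000057346) from 77403789 to 77411080, minus strand, in mm10 (positions as deposited). The 2 genes are close copies. Their longest protein-coding transcripts, 1573 and 1530 bases long, were 93.2% identical. The promoters below run from 250 bases before to 50 bases after the RefSeq start site (GRCm38.p6, the assembly of mm10) and are shown 5′ to 3′ on the gene's strand. They are printed because the letters of the ISRE, searched on both strands as GAAA, a gap of 2 free bases and GAAA again, and set in capitals, occur in both, and because 278 bases of the 2 windows were identical without a gap.
Apol9b, chr15:77728822-77729121, plus strand: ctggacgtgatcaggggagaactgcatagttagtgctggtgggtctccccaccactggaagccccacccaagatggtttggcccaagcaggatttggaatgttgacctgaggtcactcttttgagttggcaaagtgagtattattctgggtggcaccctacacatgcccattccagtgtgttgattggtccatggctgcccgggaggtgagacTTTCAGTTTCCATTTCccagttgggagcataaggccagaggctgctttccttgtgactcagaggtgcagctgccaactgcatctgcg
Apol9a, chr15:77411031-77411330, minus strand: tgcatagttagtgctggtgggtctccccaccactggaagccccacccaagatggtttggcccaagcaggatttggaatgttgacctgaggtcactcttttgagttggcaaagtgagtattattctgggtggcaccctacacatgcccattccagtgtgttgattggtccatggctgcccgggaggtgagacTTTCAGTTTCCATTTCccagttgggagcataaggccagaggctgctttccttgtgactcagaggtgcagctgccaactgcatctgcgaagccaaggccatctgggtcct
In each promoter 2 overlapping matches were found, starting 37 and 31 bases before the Apol9b start site and 59 and 53 bases before that of Apol9a. A second start site is listed for each gene and its promoter is not printed. The matches start 86 and 80 bases before it in Apol9b and 105 and 99 bases before it in Apol9a.

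In Ctrl, Apol9b stood at 45.4, 39.0 and 34.9 CPM (replicates 1, 2 and 3), which is 1526, 1200 and 1850 reads. The cKO libraries held 7, 1 and 0 reads for it, or 0.243, 0.0238 and 0 CPM, and a count of 0 in cKO replicate 3 allows up to 0.0441 CPM. The groups did not overlap, and no cKO library reached 1 CPM. The mean went from 39.8 ± 5.26 to 0.0889 ± 0.134 CPM (SD, n = 3 each). Summed over the libraries, 8 reads against 4576 left 0.148% of the Ctrl level at equal depth (95% interval from the counts alone 0.0637 to 0.291%). Reads here carry no molecular identifiers, so such intervals cover counting error only. On the log2(CPM + 1) scale, which understates the change of a gene near 0, the difference was -5.23 (SE 0.241, 95% interval -5.80 to -4.65). In bulk RNA, fewer cells of a type that makes a transcript and less of it per cell cannot be told apart.

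Apol9a stood at 11.8, 14.1 and 12.2 CPM in Ctrl and at 0.243, 0.119 and 0.308 CPM in cKO. Here too every cKO library lay far under the lowest Ctrl library. The mean went from 12.7 ± 1.23 to 0.223 ± 0.0962 CPM (SD, n = 3 each), the difference was -3.48 (SE 0.332, 95% interval -4.27 to -2.69), and 33 reads in all remained against 1474. Shared sequence ties the 2 results together: of the 1869 distinct stretches of 75 bases, the read length, in the annotated Apol9b transcripts, 809 (43.3%) also occur in Apol9a. A read from such a stretch cannot be given to either gene, so how the authors' counting split or dropped these reads affects both levels. Per kilobase of exon, the Ctrl level was 21.8 CPM for Apol9b and 2.13 CPM for Apol9a, the lowest of the 46 members. The length used joins all annotated exons, 1821 bases for Apol9b and 5953 for Apol9a. The longest protein-coding transcripts have 1573 and 1530 bases, so the gap between the genes and the rank of Apol9a depend on the length chosen.

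Of the other members called lower, 3 are direct antiviral effectors. Ifitm2 and Ifitm3 encode membrane proteins that hold back virus entry from endosomes, and Isg20 encodes an exonuclease that degrades viral RNA. The fourth, Gbp3, encodes a guanylate-binding GTPase. The promoters of Gbp3, Ifitm2 and Ifitm3 are printed, with those of Ifit1 and Isg15, a pair of textbook targets of ISGF3 that were not called, because all 5 hold the ISRE letters (capitals).
Gbp3, chr3:142559794-142560093, plus strand: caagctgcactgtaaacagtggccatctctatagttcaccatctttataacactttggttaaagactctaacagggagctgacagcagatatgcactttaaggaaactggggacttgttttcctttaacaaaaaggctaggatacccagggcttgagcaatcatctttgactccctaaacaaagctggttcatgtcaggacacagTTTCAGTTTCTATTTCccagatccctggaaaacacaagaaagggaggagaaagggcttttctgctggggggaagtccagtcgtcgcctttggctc
Ifitm2, chr7:140955912-140956211, minus strand: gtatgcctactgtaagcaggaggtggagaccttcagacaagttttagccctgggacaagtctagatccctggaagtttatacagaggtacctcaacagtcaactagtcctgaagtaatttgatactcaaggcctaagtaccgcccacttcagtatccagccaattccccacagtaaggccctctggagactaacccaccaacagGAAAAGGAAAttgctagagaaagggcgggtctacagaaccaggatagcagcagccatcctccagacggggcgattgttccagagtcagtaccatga
Ifitm3, chr7:141010695-141010994, minus strand: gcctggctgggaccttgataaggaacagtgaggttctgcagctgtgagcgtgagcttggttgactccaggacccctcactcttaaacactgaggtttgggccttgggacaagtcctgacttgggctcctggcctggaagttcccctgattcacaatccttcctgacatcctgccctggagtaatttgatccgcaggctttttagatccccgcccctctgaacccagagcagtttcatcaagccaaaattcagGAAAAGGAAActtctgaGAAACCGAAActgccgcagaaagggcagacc
Ifit1, chr19:34640639-34640938, plus strand: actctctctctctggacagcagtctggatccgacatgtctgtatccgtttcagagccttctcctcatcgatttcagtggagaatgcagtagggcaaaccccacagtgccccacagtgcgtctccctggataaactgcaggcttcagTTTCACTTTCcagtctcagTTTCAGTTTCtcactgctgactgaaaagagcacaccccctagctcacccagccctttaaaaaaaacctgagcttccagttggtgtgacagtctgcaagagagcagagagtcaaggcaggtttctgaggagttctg
Isg15, chr4:156200769-156201068, minus strand: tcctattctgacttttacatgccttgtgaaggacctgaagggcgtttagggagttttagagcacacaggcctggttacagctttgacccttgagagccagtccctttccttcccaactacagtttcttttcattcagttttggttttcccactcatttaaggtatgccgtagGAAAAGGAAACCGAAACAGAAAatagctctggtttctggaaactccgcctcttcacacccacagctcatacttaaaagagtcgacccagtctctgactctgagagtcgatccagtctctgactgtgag
The window of Gbp3 held 2 overlapping matches, that of Isg15 held 3, that of Ifit1 held 2 separate ones, that of Ifitm2 held 1, and that of Ifitm3 held 2 separate ones after the start site. A second promoter listed for Gbp3, not printed, held none, and none of the 3 promoters listed for Isg20 held one.

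Ifitm2 stood at 18.3, 18.2 and 31.1 CPM in Ctrl and at 0.728, 1.67 and 2.69 CPM in cKO, a difference of -3.15 (SE 0.364, 95% interval -4.02 to -2.28). The cKO mean was 7.52% of the Ctrl mean. Of its 581 distinct 75-base stretches, 42.0% also occur in other annotated genes, 194 of them in Gm45717, so its level is uncertain in the same way as that of Apol9b. Ifitm3 stood at 24.6, 21.7 and 25.3 CPM in Ctrl and at 6.80, 4.88 and 7.24 CPM in cKO, a difference of -1.78 (SE 0.184, 95% interval -2.22 to -1.34). It kept 26.4% of its Ctrl level, and its 3 cKO libraries lay close together.

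Isg20 stood at 75.9, 101.7 and 127.6 CPM in Ctrl and at 18.2, 17.1 and 16.4 CPM in cKO, a difference of -2.46 (SE 0.188, 95% interval -2.91 to -2.02). Its Ctrl libraries varied among themselves and its cKO libraries hardly did. Gbp3 stood at 238, 214 and 226 CPM in Ctrl and at 66.4, 71.8 and 57.5 CPM in cKO, a difference of -1.78 (SE 0.106, 95% interval -2.04 to -1.53). It kept 28.8% of its Ctrl level and had the smallest standard error of the 6.

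**Figure D2:**
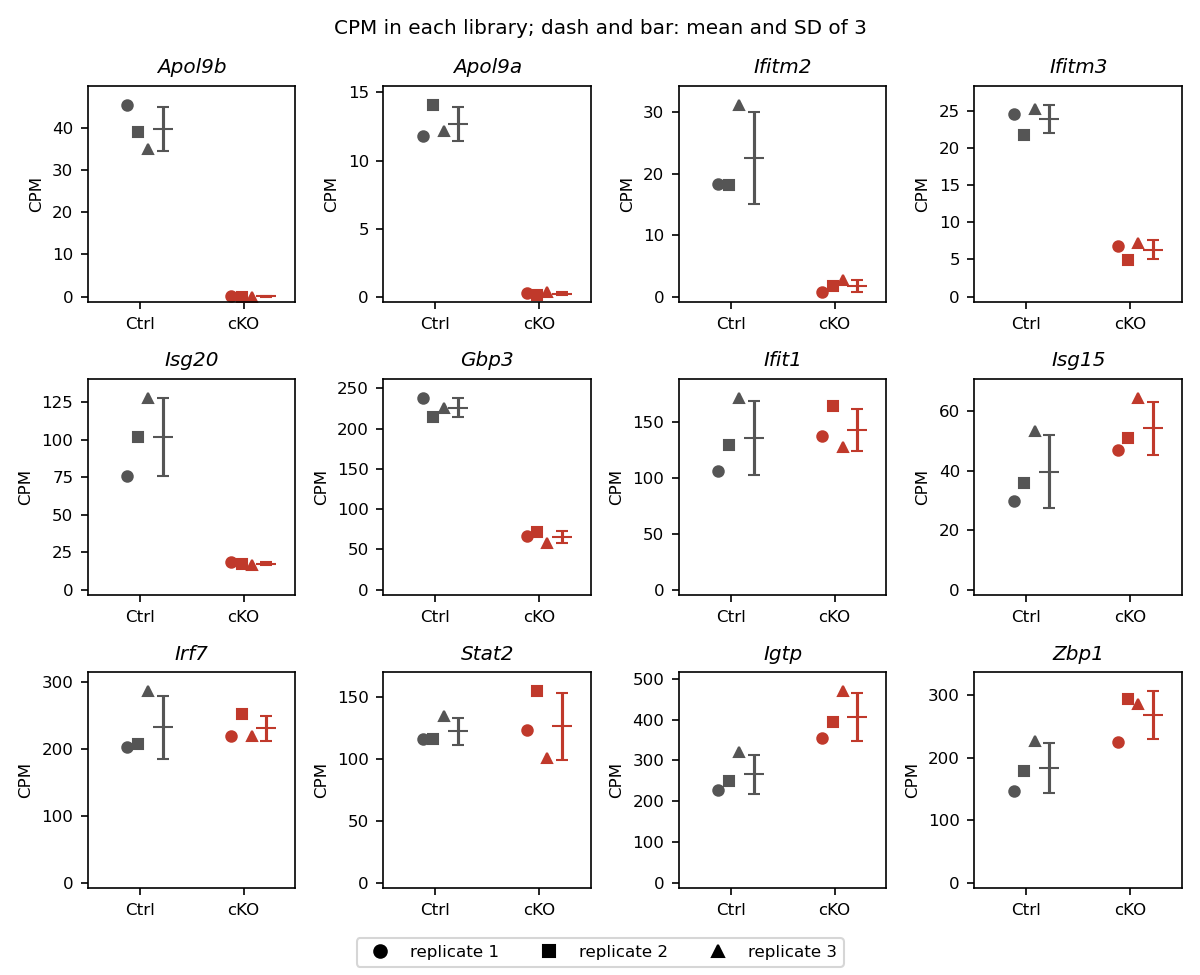
Level of 12 interferon-stimulated genes in each of the 6 libraries, in CPM (y axis, starting at 0 and scaled for each gene); points are libraries, with the marker giving the replicate number, and the dash and bar are the mean and SD of 3. Apol9b lies between 34.9 and 45.4 CPM in Ctrl and at or under 0.243 CPM in cKO, while Irf7 lies between 202 and 286 CPM in all 6 libraries.

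The set was drawn up with this comparison known, so calls under other settings describe the fits and lend the genes no further support. How far these calls rest on single libraries differed. Apol9b and Gbp3 were called whichever library was left out. Isg20 was not called without Ctrl replicate 2, Apol9a was not called without any 1 of the Ctrl libraries, and Ifitm2 and Ifitm3 were not called without any 1 of the Ctrl libraries or without cKO replicate 2. That left 3, 2 and 3 members called without Ctrl replicates 1, 2 and 3, 4 without cKO replicate 2, and 6 without cKO replicate 1 or 3. Calls over all genes fell as well, from 104 to 22, 14 and 28 without Ctrl replicates 1, 2 and 3. They fell to 71, 22 and 97 without cKO replicates 1, 2 and 3, so the lost calls are not particular to these members. The estimates of the 6 moved little: -5.32 to -5.13 for Apol9b, -3.53 to -3.41 for Apol9a, -3.41 to -2.86 for Ifitm2, -2.66 to -2.29 for Isg20, -1.85 to -1.70 for Gbp3 and -1.87 to -1.63 for Ifitm3. edgeR's quasi-likelihood test on recovered reads called 3 of the 6 without the block (Apol9a, Gbp3 and Isg20) and all 6 with it, and all 6 were lower in every fit made.

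A fit with the replicate number as a block was made as well. The deviations of like-numbered libraries were alike mainly in that both replicate 3 libraries stood apart, and replicates 1 and 2 were matched by number only in part. Ctrl replicate 1 correlated at 0.855 with cKO replicate 1 and at 0.579 with cKO replicate 2. Ctrl replicate 2 correlated at 0.718 with cKO replicate 1 and at 0.688 with cKO replicate 2. The block fit called 10 members, where 2.87% of all genes were called. Of the 10, 7 were lower (1.64% of all genes) and 3 higher (1.24% of all genes). The seventh lower gene was Ifi44, a GTP-binding-like protein induced by interferon, at 33.1, 28.8 and 13.4 CPM in Ctrl and 22.8, 12.2 and 3.50 CPM in cKO. Its groups overlapped, but each cKO library lay under the Ctrl library of the same number, and the difference was -1.12 (95% interval -2.62 to 0.38, and -1.61 to -0.63 with the block). It was -0.46 without cKO replicate 3 and -1.66 without cKO replicate 1, and Ifi44 was not called without the block under any library left out.

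The 3 genes called higher with the block were Igtp, Zbp1 and Samhd1. Igtp encodes an immunity-related GTPase that acts on parasite-containing vacuoles, and it stood at 227, 249.6 and 319.7 CPM in Ctrl and 355, 393 and 469.7 CPM in cKO (0.62, 95% interval 0.24 to 0.999). Zbp1, a sensor of left-handed nucleic acid that can start cell death, stood at 147, 178 and 227 CPM in Ctrl and 225, 295 and 286 CPM in cKO (0.56, 95% interval 0.13 to 0.99). Samhd1, which lowers the nucleotide pool that retroviruses need, stood at 149.6, 157 and 185 CPM in Ctrl and 224, 212 and 255 CPM in cKO (0.49, 95% interval 0.22 to 0.77). For Igtp and Samhd1 every cKO library lay above every Ctrl library, and for Zbp1 the lowest cKO library lay just under the highest Ctrl library. Over all 46 members the groups did not overlap for 16 (11% of all genes), 10 of them higher (3.89% of all genes) and 6 lower (7.1% of all genes).

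The 7 genes classed here as transcription factors were at or slightly above their Ctrl level. The class holds Irf1, Irf7, Irf9 and Stat2, and also Sp100, Ifi35 and Nmi, which are not counted here among the drivers of the response. All 7 had a positive difference (median 0.13). limma called 0 of them with or without the block, 0 had an unadjusted p under 0.05 by limma without the block (6.02% of all genes), and edgeR called 0 with or without the block, while DESeq2 called Sp100. All 7 intervals lay within 2-fold without the block (56.9% of all genes) and with it (95.5%). Irf7, the factor that amplifies type I interferon production, stood at 202, 207 and 286 CPM in Ctrl and at 219, 252 and 219.5 CPM in cKO. The cKO values lay inside the Ctrl range, and the difference was 0.01 (SE 0.150, 95% interval -0.35 to 0.36).

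Irf9, the DNA-binding part of ISGF3, stood at 166, 173 and 204 CPM in Ctrl and at 197, 227 and 204 CPM in cKO (0.21, 95% interval -0.05 to 0.47). Stat2, its STAT partner, stood at 116, 116 and 135 CPM in Ctrl and at 123, 155 and 101 CPM in cKO (0.03, 95% interval -0.36 to 0.42). Both genes overlapped between the groups. Irf1, a factor induced by interferon gamma, went from 408 ± 61.0 to 462 ± 14.9 CPM (0.19), and Sp100, a nuclear body protein, from 759 ± 28.8 to 874 ± 74.8 CPM (0.20; SD, n = 3 each). Ifi35 and Nmi, a pair of interacting leucine zipper proteins, differed by 0.09 and 0.13.

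Among the 6 sensors and editors of nucleic acid, 5 had a positive difference (median 0.11), and all 6 intervals lay within 2-fold. Beside Zbp1 these were Ddx58 (RIG-I, 0.10), Ifih1 (MDA5, 0.29), Dhx58 (LGP2, 0.09), the RNA-editing enzyme Adar (0.12) and the kinase Eif2ak2 (PKR, -0.01), which shuts down translation when it binds double-stranded RNA. The 4 genes of the OAS family, whose enzymes make the messenger that activates RNase L, split evenly: Oas1a (0.35) and Oasl2 (0.14) had positive differences, Oas2 (-0.11) and Oas3 (-0.14) negative ones. Of the stretches of 75 bases in Oas1a, 47.6% also occur in Oas1g.

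Isg15 encodes a ubiquitin-like protein that is coupled to many others. It stood at 29.8, 35.9 and 53.4 CPM in Ctrl and at 47.1, 51.1 and 64.4 CPM in cKO (0.47, 95% interval -0.07 to 1.01). The groups overlapped, and the lowest library was a Ctrl library and the highest a cKO one. The other 6 genes of this class all had positive differences: Usp18, which removes Isg15 and dampens the receptor (0.29), Parp14 (0.25), Trim30a (0.23), Dtx3l (0.22), Trim25 (0.15) and Parp9 (0.05). The class median was 0.23.

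Direct antiviral effectors other than the 3 called lower also had positive differences. Ifit1, which binds foreign RNA caps, stood at 107, 129 and 172 CPM in Ctrl and at 137, 164 and 128 CPM in cKO (0.10, 95% interval -0.35 to 0.54). Its groups overlapped fully. Its neighbour in function Ifit3 differed by 0.03, with 41.1% of its 75-base stretches also in Ifit3b. The values were 0.36 for the nucleotide kinase Cmpk2, 0.16 for Rsad2 (viperin) and 0.12 for Bst2 (tetherin), which holds budding virus at the cell surface.

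The GTPases other than Gbp3 and Igtp were Gbp2 (0.08), Gbp7 (0.16) and Irgm1 (0.22), which controls the other immunity-related GTPases. The last 6 genes share no single function. Rtp4, a chaperone of receptors, had 0.38, and Xaf1, which promotes apoptosis, had 0.25. Ifi27 had 123 ± 14.7 CPM on average in Ctrl against 122 ± 3.34 CPM, and Lgals3bp, a secreted lectin-binding glycoprotein, had -0.06. Shisa5, an endoplasmic reticulum protein tied to cell death, was the most abundant member by CPM and per length, with 3028 ± 219 CPM on average in Ctrl against 2999 ± 259 CPM (SD, n = 3 each), or 918 CPM per kilobase of exon in Ctrl. Its difference of -0.01 turned positive, up to 0.04, under TMM and upper quartile scaling and in the edgeR and DESeq2 fits.

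For the 40 members other than the 6 called lower, the cKO mean ranged from 0.512 times (Ifi44) to 1.53 times (Igtp) the Ctrl mean, with a median of 1.11 times. limma called 0 of these 40, where 8 had an unadjusted p under 0.05 (6.02% of all genes), and edgeR without the block also called 0 (0.261% of all genes). DESeq2 called 4 (Igtp, Irgm1, Samhd1 and Sp100), where it called 4.36% of the genes to which it gave an adjusted p, and edgeR with the block called 6, 5 higher and 1 lower (2.99% of all genes). Of the intervals of all 46 members, 38 lay within 2-fold without the block (56.9% of all genes) and 39 with it (95.5%). The 2-fold bounds leave room for smaller changes: an interval within them does not show that a gene was the same in both groups. Over all 46 members, 33 were higher in cKO (71.7%, against 41.0% of all genes, or 6426 of 15691). When the libraries were scaled by TMM, 36 were higher, and so were 7567 of the 15691 genes.

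That balance differed between like-numbered pairs of libraries. In the first and second pairs, 35 and 37 of the 46 members were higher in cKO (all genes 52.4% and 42.4%), with medians of 0.21 and 0.25 (all genes 0.01 and -0.05). In the third pair 18 were higher (39.1%, all genes 33.7%), with a median of -0.11 against 0 over all genes. A gene at 0 in both replicate 3 libraries has no difference there and counts as not higher, which lowers the share of all genes. A group of 18 members, Irf7, Stat2, Ifit1, Ifit3, Usp18, Rsad2 and Ddx58 among them, was higher in the first and second pairs and lower in the third, where their differences ran from -0.65 to -0.01. All 6 genes called lower were lower in each pair. Apol9b had pair differences of -5.22, -5.29 and -5.17, while Ifit3 had 0.43, 0.24 and -0.59.

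**Figure D3:**
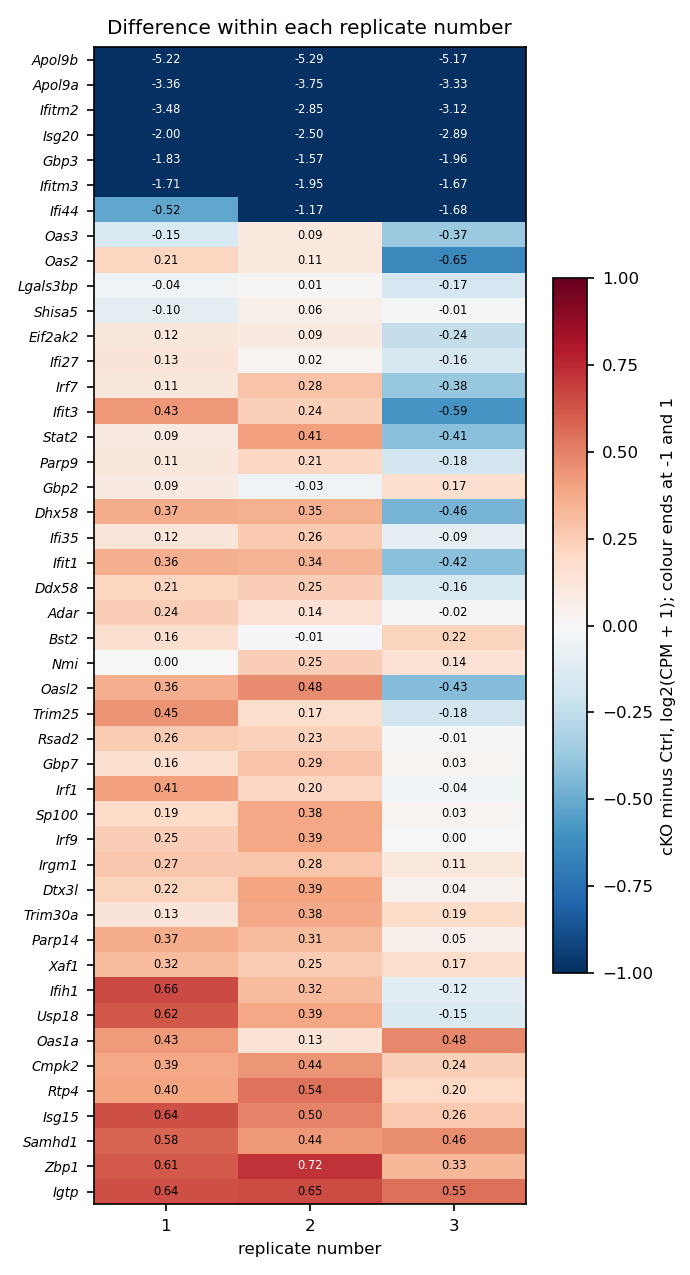
Difference between cKO and Ctrl in each pair of like-numbered libraries for the 46 interferon-stimulated genes (rows, ordered by their difference), on the log2(CPM + 1) scale; columns are replicate numbers, each cell is coloured by its printed value, and the colours end at -1 and 1. The 6 genes at the top lie under 0 in every pair, and the median of all members goes from 0.21 and 0.25 in pairs 1 and 2 to -0.11 in pair 3.

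The libraries labelled replicate 3 moved with this difference. In Ctrl, the third library was higher than the mean of the other 2 for 37 of the 46 members (median 0.21, all genes -0.13), and in cKO for 18 (median -0.06, all genes -0.30). The part of library quality in the pattern was not tested. With replicates 1 and 2 alone, the same 6 genes were called lower and Igtp, Samhd1 and Rtp4 were called higher (1.72% of all genes, either direction).

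Interferon ligands, receptors and signal transducers were examined from lists made for this purpose, none of which had a gene called lower. Ifng, the gene of interferon gamma and a hallmark product of iNKT1 cells, averaged 35.4 ± 2.02 CPM over the Ctrl libraries and 48.2 ± 6.63 CPM over those of cKO (SD, n = 3 each; difference 0.43, limma adjusted p = 0.458, higher in 3 of 3 pairs). Among the tools run, DESeq2 alone called Ifng (adjusted p = 0.0473). Ifnb1 stood at 1.68 ± 1.73 and 2.16 ± 2.69 CPM and was listed at 0 in both replicate 3 libraries. The other 19 listed ligands were not analysed here.

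All 4 receptor chains analysed stayed within 2-fold by their intervals, which leaves room for smaller changes. The groups did not overlap for any of the 4 (11% of all genes), with 2 higher and 2 lower in cKO. Each had the same direction in all 3 like-numbered pairs. limma called 0 of them, and 2 had an unadjusted p under 0.05 (6.02% of all genes). The type I receptor chains Ifnar1 and Ifnar2 differed by 0.16 (197 ± 23.6 to 220.0 ± 5.79 CPM) and -0.28 (136 ± 2.97 to 112 ± 8.62 CPM), the latter with a limma adjusted p of 0.519. Ifngr1 differed by 0.29 (961 ± 27.4 to 1181 ± 99.4 CPM, limma adjusted p = 0.458; SD, n = 3 each), and Ifngr2 was not analysed here. Of 17 signal transducers, 12 had a positive difference (median 0.12), and 0 were called by limma without the block, by edgeR without the block or by DESeq2, while 2 had an unadjusted p under 0.05. With the block, 1 transducer was called, the transcription factor Irf8 (52.9 ± 14.6 to 85.5 ± 17.9 CPM, SD, n = 3 each, adjusted p = 0.00498).

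Among 11 inhibitors of the pathway, limma without the block called only Socs3, which rose from a Ctrl mean of 19.3 ± 1.57 CPM to a cKO mean of 38.5 ± 4.82 CPM (SD, n = 3 each), by 0.96 on the log2 scale (SE 0.132, limma adjusted p = 0.0352, higher in 3 of 3 pairs). The call was not made with TMM scaling (adjusted p = 0.0571) or by edgeR without the block (adjusted p = 0.1004). Socs3 blocks JAK kinases at cytokine receptors of the interleukin 6 type. Socs1, the main SOCS inhibitor of interferon receptors, differed by -0.02 (211 ± 81.8 to 201 ± 39.2 CPM), with a wide spread between libraries. Usp18, the feedback inhibitor at Ifnar2, is among the 46 members above. With the block, the phosphatase gene Ptpn6 (1597 ± 109.8 to 1193 ± 44.6 CPM, adjusted p = 0.0205) and the cytokine feedback gene Cish (85.2 ± 26.9 to 34.1 ± 8.75 CPM, SD, n = 3 each, adjusted p = 0.000406) were called lower as well. edgeR with the block did not call Ptpn6 (adjusted p = 0.0635), and DESeq2 called Socs3 higher and Ptpn6, Cish and the SUMO ligase gene Pias3 lower (4.36% of all genes with an adjusted p).

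A further list of 86 interferon-stimulated genes outside the 46 members held 71 that could be tested. Of these, 51 were higher and 20 lower in cKO, with a median difference of 0.13 against -0.04 for all genes, and 59 intervals lay within 2-fold (56.9% of all genes). With the block 66 of the 71 intervals did (95.5% of all genes). The median Ctrl level was 72.8 CPM for this list and 16.2 CPM over all genes. By limma (0.663% of all genes) and by edgeR (0.261%) without the block, 0 were called, where 12 had an unadjusted limma p under 0.05 (6.02% of all genes). DESeq2 called 7 higher and 3 lower (4.36% of all genes with an adjusted p, either direction). With the block, limma called 6 higher (1.24% of all genes) and 3 lower (1.64%). The 6 were Ifi27l2a (difference 0.72), Gbp5 (0.55), Gbp6 (0.80), Slfn2 (0.36), Slfn5 (0.86) and Epsti1 (0.40), and the 3 were Ifitm1 (-1.84), Tnfsf10 (-0.44), the gene of the death ligand TRAIL, and Trim14 (-0.43). The antiviral GTPases Mx1 and Mx2 differed by 0.43 and 0.17 and were not called in either fit.

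Genes next to those called lower did not all move with them. Within 500 kb of Apol9b, counted between lowest coordinates, 13 genes were tested, with a median difference of -0.37 against -0.04 over all genes. Of the 13, limma without the block called Apol9a and Apol9b, 325 kb apart, both lower (0.459% of all genes). With the block it called 4 lower (1.64% of all genes) and 1 higher (1.24%). Apol7e, 30.2 kb from Apol9b on its 5′ side and the most abundant of the family, went from 218 ± 6.75 to 119.6 ± 20.3 CPM (SD, n = 3 each), a difference of -0.87 (limma adjusted p = 0.0547, 0.0340 with TMM scaling and 0.00225 with the block). Myh9, a nonmuscle myosin gene 31.5 kb from Apol9b on the other side, had -0.64 (adjusted p = 0.995, and 0.00942 with the block), and Apol7b, called higher with the block (adjusted p = 0.0205), had 0.91. Of the 6 tested genes of the apolipoprotein L family, 5 had a negative difference.

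**Figure D4:**
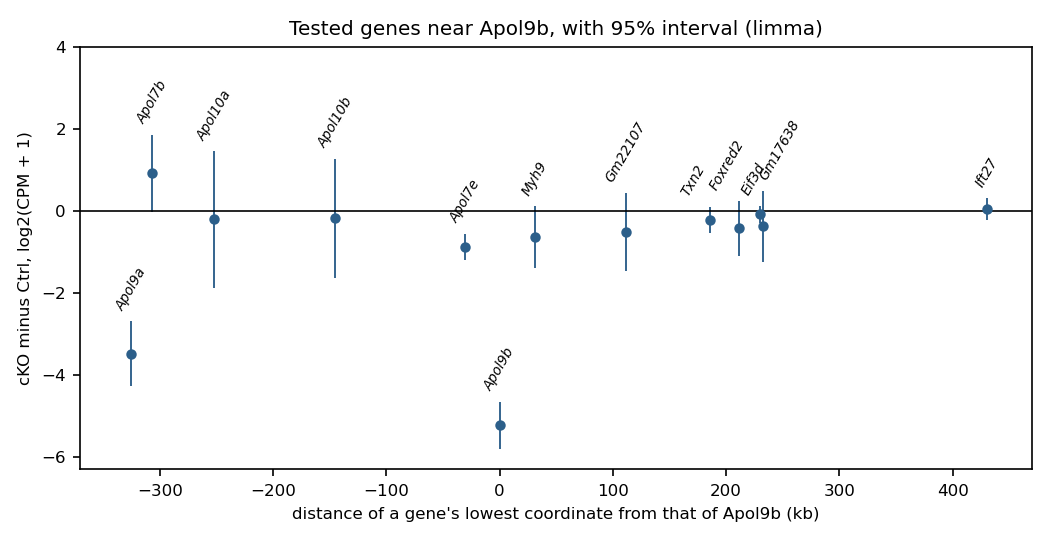
Difference between cKO and Ctrl on the log2(CPM + 1) scale (y axis) of the 13 tested genes within 500 kb of the Apol9b start, by the distance of each gene's lowest coordinate from that of Apol9b in kb (x axis); bars are 95% limma intervals, 3 libraries a group. Apol9b (-5.23) and Apol9a (-3.48, at -325 kb) lie far under the other genes, and Apol7b (0.91) lies above 0.

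On chromosome 7, Ifitm2 and Ifitm1 lie 54.7 and 42.4 kb below Ifitm3 in coordinate. Ifitm1 went from 4.28 ± 2.94 to 0.357 ± 0.261 CPM (SD, n = 3 each), a difference of -1.84 (limma adjusted p = 0.414, and 0.00204 with the block). Irf7, 253 kb above Ifitm3, differed by 0.01. On chromosome 3, the genes around Gbp3 had differences of the opposite sign: 0.16 for Gbp7 (29.7 kb below), 0.55 for Gbp5 (63.1 kb below) and 0.08 for Gbp2 (60.6 kb above).

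RefSeq promoters were matched for 38 of the 46 members, and Dhx58, Ifi27, Oas2, Parp14, Parp9, Rtp4, Usp18 and Zbp1 had no entry. The ISRE letters were found on either strand in 22 of the 38 (57.9%), against 3.99% of 27025 genes with a promoter of the same length. The GAS letters TTCNNNGAA were found in 12 (31.6% against 9.55%) and the SMAD box CAGACA, the short element bound by the SMAD proteins of the TGF-beta pathway, in 9 (23.7% against 23.6%). Among the 6 genes called lower, 5 held the ISRE letters, 2 the GAS letters and 3 the SMAD box. Among the other 32 genes these numbers were 17, 10 and 6. Such matches describe letters in the window and are not evidence of binding.

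Markers of other cells were low, with 1 list that differed between the groups. Summed B cell markers lay at 5.63 to 12.3 CPM in Ctrl and 5.49 to 12.7 CPM in cKO (4 of 6 in the table, none at 0). Myeloid markers lay at 13.1 to 17.7 and 13.8 to 18.5 CPM (5 of 10, Csf1r at 0 in a library), and dendritic cell markers at 129 to 148 and 125 to 152 CPM (8 of 9). Most of the dendritic sum was Bst2, itself an interferon-stimulated gene, and Flt3, Siglech and Clec9a were at 0 in a library. The epithelial list had Epcam alone of 8, at 4.64 to 9.63 and 3.43 to 9.97 CPM. Markers of iNKT2 or iNKT17 cells lay at 42.8 to 61.8 CPM in Ctrl and 32.0 to 48.3 CPM in cKO (5 of 7, none at 0).

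Markers of double-positive thymocytes lay at 131 to 143 CPM in Ctrl and at 174 to 216 CPM in cKO (6 of 8, none at 0), without overlap. Cd4, with a mean of 121 CPM in Ctrl and 176 CPM in cKO, made up most of the sum, which mainly reads that 1 gene. Rag1 averaged 0.852 and 1.91 CPM, Cd8a 1.32 and 2.98 CPM, and Rag2 and Ptcra were not listed. Whether the groups differed in double-positive thymocytes, and any part of such cells in the results above, was not tested.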

How the data were processed

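RNA from 6 libraries (3 Ctrl, 3 cKO) was analysed from 1 table of CPM values deposited by the authors, who used Trimmomatic 0.33, STAR 2.5.2, HTSeq 0.6.1 and edgeR with mm10, per the submitters' processing notes. Strand setting and treatment of multimapped reads are not given in the sources used here. The table also holds the authors' deposited log2 fold changes, p-values and likelihood-ratio score, which were not used for any result. Gene identifiers were matched to GENCODE M21 for 17825 of 17985 genes, for exon lengths and transcript sequences.

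The 46 members and all lists were chosen with earlier results of these data known. Values were tested as log2(CPM + 1) with limma 3.58.1 (R 4.3.3; moderated test, Benjamini-Hochberg adjustment, threshold 0.05), on the 15691 genes whose mean reached 1 CPM, without a replicate block. The script was tested on simulated data. All CPM values (100%, tolerance 0.01 read) were whole multiples of 1 read, and the recovered reads were tested with edgeR 4.0.16, which called 41 genes, and DESeq2 1.42.0. Deviations of like-numbered libraries from their group means, by the numbers in the labels, correlated at 0.855, 0.688 and 0.924 over genes. Unlike numbers reached 0.718 (Ctrl 2 with cKO 1) and 0.579 (Ctrl 1 with cKO 2), so the likeness is mainly that of the replicate 3 libraries. All 3 pairs passed the rule for pairing (over 0.1), and the block fit is given where it changes a call. No 2 libraries of the same group agreed within sampling noise.

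Genes named were Apol9a and Apol9b, members called with or without the block, Irf7, Irf9, Stat2, Isg15, Ifit1 and the 3 most abundant members. From the pathway lists they were Ifng, the receptor chains, Tgfbr2 and genes called; 1 other gene is not reported here. All other genes were named after their values were seen, to complete a class. Other scalings (TMM, upper quartile), pseudocounts (0.25, 5), filters (none, 5 CPM), replicates 1 and 2 alone, and leaving out each library were the alternatives.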

Additional observations from a re-analysis of the deposited data

How the results depend on the processing

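Over all genes limma called 104 (32 higher, 72 lower). The count was 451 with the replicate block, 513 with TMM scaling and the block (chosen after seeing the data), 41 by edgeR, 469 by edgeR with the block, 552 by DESeq2 (3042 genes had no adjusted p) and 296 with replicates 1 and 2 alone. It was 14 to 97 with 1 library left out. Of the 46 members, 6 were called, against 10 with the replicate block, 12 with TMM and the block, 3 by edgeR, 12 by edgeR with the block, 10 by DESeq2 and 2 to 6 with 1 library left out. The count called lower was 6, against 3 by edgeR and 2 to 6 with 1 library left out. The count called higher was 0, against 3 with the block, 5 with TMM and the block, 5 by edgeR with the block, 4 by DESeq2 and 3 with replicates 1 and 2 alone, and it was 0 with any 1 library left out. The cause of these changes was not tested, beyond the smaller number of libraries where some were left out. The median difference of the members (0.12) stayed positive in the 12 alternatives and ran from 0.05 to 0.22 with 1 library left out. Between 34 and 39 intervals then lay within 2-fold.

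The difference of Shisa5 (-0.015) became 0.0289 with TMM scaling, with or without the block, 0.0126 with upper quartile scaling, 0.0359 by edgeR, 0.0290 by edgeR with the block and 0.0406 by DESeq2. With 1 library left out it ran from -0.0760 to 0.0491. The differences of Irf7, Stat2 and Ifit1 then ran from -0.0830 to 0.165, from -0.129 to 0.178 and from -0.0630 to 0.278. Apol9a was not called under the filter of 5 CPM. The 3 libraries a group and the spread of the libraries labelled replicate 3 limit what can be told of small changes, and for Apol9b the reads left in cKO are too few to order its libraries.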
